A study of Mus musculus with 16 samples.

Results

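The genes described here were the Nduf genes, which encode the nuclear subunits and Ndufaf assembly factors of mitochondrial complex I. They were chosen by name: every protein-coding gene of the count table whose mouse symbol begins with Nduf, which gave 46 of 55573 genes. All 46 had at least 10 counts in 4 or more mice, and all 46 were among the 16857 genes tested. By role they were 7 core subunits, 29 accessory subunits, 8 Ndufaf assembly factors, and Ndufa4 with its relative Ndufa4l2. RNA was taken from the heart apex of 16 male mice, all of which had received an AAV9 vector driven by the cardiac troponin T promoter (cTNT), which is active in cardiomyocytes. The vector carried GFP (AAV9-cTNT-GFP) or the long noncoding RNA Cardinal (AAV9-cTNT-CARDINAL), and was injected at postnatal day 1. Each vector was given to 4 mice with sham surgery and 4 with transverse aortic constriction (TAC), a narrowing of the aorta that overloads the left ventricle, and hearts were collected 4 weeks after surgery. No group without a vector was analysed here, so the GFP mice are the controls. Gene levels are given as CPM, the reads of a gene relative to the library size after scaling by the trimmed mean of M values (TMM).

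Complex I takes electrons from NADH, passes them along iron-sulfur clusters to ubiquinone and pumps protons out of the mitochondrial matrix. Its L shape has a matrix arm, which holds the flavin and the clusters, and a membrane arm, whose proton-pumping core is encoded by mitochondrial DNA. The nuclear Nduf genes supply the core of the matrix arm and the accessory subunits that surround both arms, while the assembly factors help to build the enzyme and leave before it is complete. The heart beats on oxidative phosphorylation and is rich in this enzyme.

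Library totals ran from 16441997 to 21904589 counts, and mitochondrially encoded genes took 30.3 to 34.0% of them. Cardinal itself was at 18.3 to 93.9 CPM in the 8 mice with its vector and at 3.42 to 7.24 CPM in the 8 GFP mice, with the highest value in Cardinal TAC mouse 1. That mouse also had the highest summed fibroblast markers (867 CPM) and the lowest summed Nduf level (6248 CPM) of its group. Results that rest on its group are therefore also given without it. Because its low Nduf level was part of that choice, leaving it out raises the Nduf values of its group by construction. Fits without it show how far results rest on this mouse and are no independent support for higher levels with Cardinal. The lowest count of any Nduf gene in a mouse was 122, for Ndufa4l2.

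In GFP sham hearts the subunits were far more abundant than the factors that assemble them. Divided by the length of the shortest principal transcript, the 36 subunit transcripts of both arms ran from 52.8 CPM per kb for Ndufs4 to 420 CPM per kb for Ndufb8, with a median of 185 CPM per kb. The 8 assembly factors ran from 7.18 CPM per kb (Ndufaf3) to 22.4 CPM per kb (Ndufaf1), so by this measure every assembly factor lay below every subunit. The highest level per length was that of Ndufa4, at 882 ± 45.9 CPM per kb (SD, n = 4). Ndufa4 was first described with complex I and is now known to act in cytochrome c oxidase. Its relative Ndufa4l2, which hypoxia is known to induce, stood at 10.9 ± 1.09 CPM per kb (SD, n = 4). Ndufs8, at 125 ± 4.37 CPM per kb (SD, n = 4), was the lowest of the core subunits. For Ndufb2, Ndufc1 and Ndufab1 the level depended on the transcript used: Ndufb2 stood at 138 CPM per kb of its shortest principal transcript and at 14.4 CPM per kb of its longest. By its longest transcript Ndufb2 lay below Ndufaf1 (22.4), Ndufaf2 (15.6) and Ndufaf4 (14.7 CPM per kb).

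**Figure D1:**
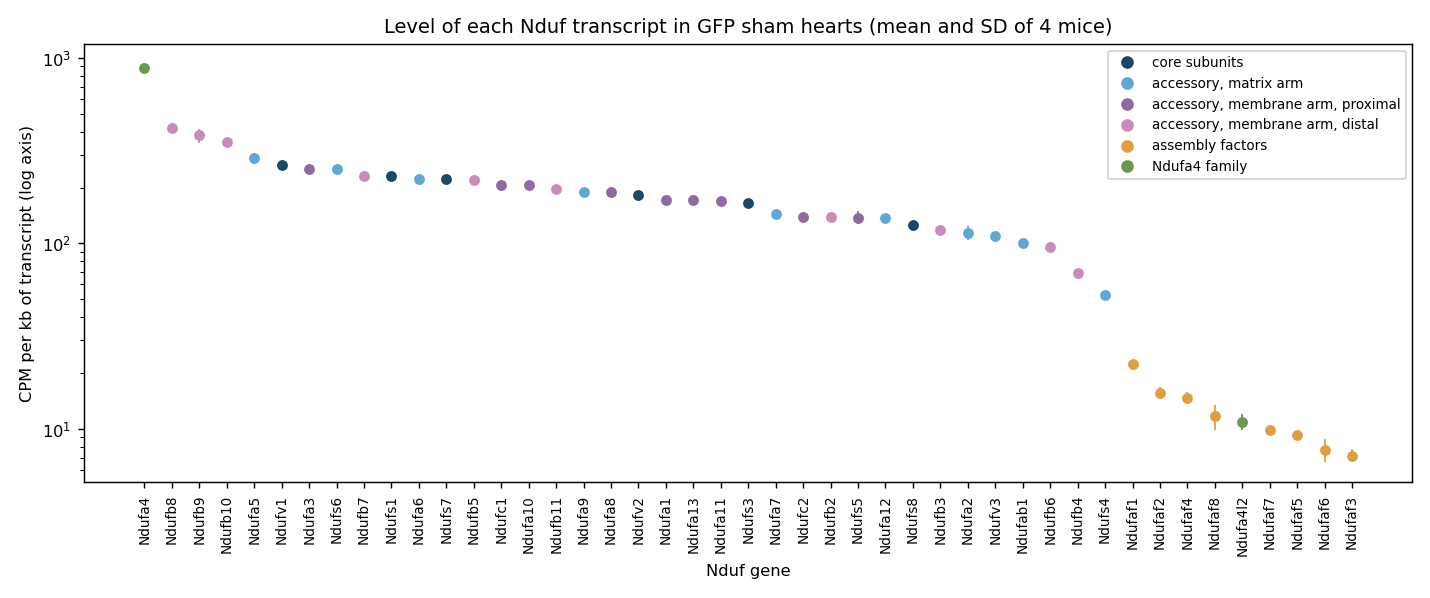
Level of Nduf transcripts in GFP sham hearts, as CPM per kb of the shortest principal transcript on a log axis; points are means of 4 mice, bars are SD, and colors give the role in complex I. All 8 assembly factors lie between 7.18 and 22.4 CPM per kb, below the 36 subunits of both arms, which start at 52.8 CPM per kb.

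The first question was how pressure overload moved these transcripts in the control hearts. With the GFP vector, TAC lowered 24 of the 46 Nduf genes and raised none (edgeR quasi-likelihood test, adjusted p under 0.05 over all tested genes). Among all tested genes 8.92% were called lower and 8.49% higher in this comparison, 17.4% in all. The 24 included 6 of 10 accessory subunits of the matrix arm, 3 of 9 on the proximal membrane arm, 8 of 10 on the distal membrane arm, and Ndufa4. No assembly factor was among them. At an unadjusted p under 0.05, 32 of the 46 passed, against 29.9% of all tested genes. The median log2 fold change was -0.19 over the 46 genes, or -12.3%, against 0.0050 over all tested genes, and 41 of the 46 had a negative value. The 4 TAC mice lay below all 4 sham mice for 23 Nduf genes, a pattern that 10.2% of all tested genes showed, while 10.1% showed the opposite one and no Nduf gene did. Summed over the 46 genes, the level was 7258 to 7730 CPM in GFP sham mice and 5920 to 6682 CPM in GFP TAC mice, without overlap. In whole tissue, fewer cardiomyocytes and less RNA per cardiomyocyte cannot be told apart.

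These falls are relative to the typical gene, because the scaling sets that gene near 0. With plain library totals in place of the scaling, the median of all tested genes rose to 0.16 on the log2 scale and that of the Nduf genes was -0.029, and 9 Nduf genes were lower and 4 higher. Under that scaling 4.04% of all tested genes were called lower and 25% higher. The lower ones included Ndufs1, Ndufv1, Ndufa3, Ndufa5, Ndufa13, Ndufb11, Ndufs4 and Ndufv3, and the 4 higher ones were Ndufa11, Ndufaf1, Ndufaf5 and Ndufb3. The 9 lower genes were called under both scalings, whereas the 4 higher ones had no call after TMM.

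The core subunits carry the flavin and the iron-sulfur clusters, and their median log2 difference was -0.28. Ndufs1, the large cluster-binding subunit (chr1:63143596-63176833, GRCm38, minus strand), was at 575, 585, 618 and 603 CPM in the 4 GFP sham mice and at 444, 407, 458 and 455 CPM in the 4 GFP TAC mice. Every TAC value lay over 100 CPM below the lowest sham value. Its log2 fold change was -0.43 ± 0.06 (SE), a fall of 25.9%, with an adjusted p of 1.4e-04 by edgeR. Ndufv1 (chr19:4007384-4012806, minus strand), which binds NADH and the flavin, was at 425, 470, 454 and 416 CPM in sham and at 337, 298, 338 and 357 CPM in TAC. Its log2 fold change was -0.41 ± 0.07 (SE, adjusted p = 8.8e-04), and TAC mouse 3 was the lowest of the 8 mice for both Ndufs1 and Ndufv1.

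Further core subunits had smaller differences. Ndufv2, the partner of Ndufv1, fell by 0.28 ± 0.06 (SE) on the log2 scale (adjusted p = 0.0044). Ndufs3 fell by 0.23 ± 0.05 (adjusted p = 0.0064) and Ndufs8, a cluster-binding subunit next to the membrane, fell by 0.20 ± 0.05 (adjusted p = 0.015). Ndufs7, which holds the last cluster before ubiquinone, was at 172, 176, 164 and 159 CPM in sham and at 144, 139, 155 and 160 CPM in TAC. Here TAC mouse 7 lay above sham mouse 4, and the difference of -0.17 ± 0.07 did not pass the test (adjusted p = 0.11). An exact two-sided permutation test over the 70 labelings of 4 against 4 mice gave p = 0.029 for Ndufs1. This is the smallest value it allows, and any gene without overlap between the groups gets it.

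**Figure D2:**
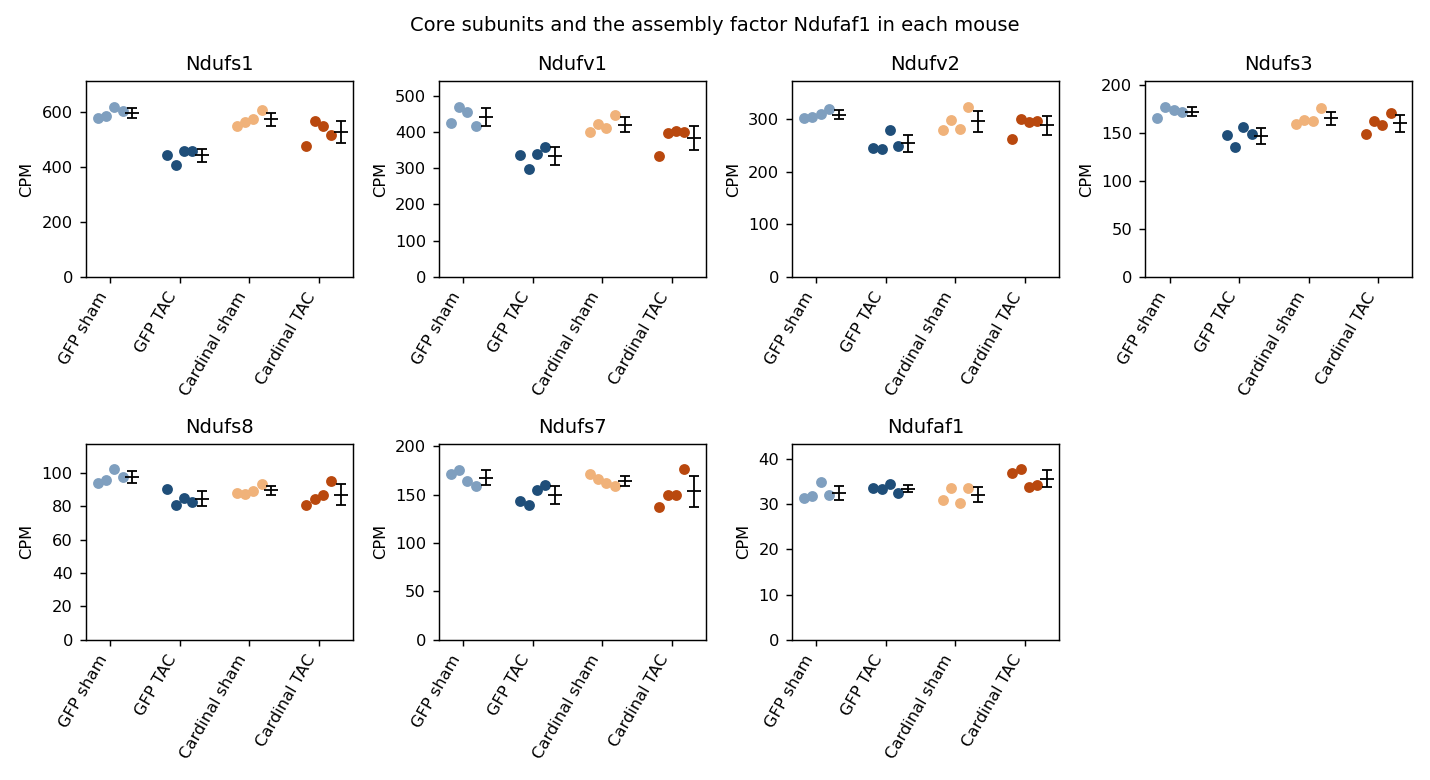
CPM of core subunits and of the assembly factor Ndufaf1 in each of the 16 mice, in mouse-number order within each group, with the mean and SD of each group beside its points. For Ndufs1, Ndufv1, Ndufv2, Ndufs3 and Ndufs8 the 4 GFP TAC mice lie below the 4 GFP sham mice; for Ndufs7 and Ndufaf1 they overlap.

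Among the accessory subunits of the matrix arm, 6 of 10 were lower after TAC with GFP and the median log2 fold change was -0.23. Ndufa5 had the largest change of any Nduf gene. It was at 234, 247, 247 and 277 CPM in GFP sham mice and at 177, 181, 210 and 170 CPM in GFP TAC mice, a log2 difference of -0.45 ± 0.10 (SE, adjusted p = 0.0048). The groups did not overlap, and TAC mouse 4 was the closest to the sham mice. Ndufv3, a small subunit beside the flavin site, fell by 0.36 ± 0.09 on the log2 scale (adjusted p = 0.0089), and Ndufs4, whose loss is known to cause a Leigh-like disease in mice, fell by 0.30 ± 0.06 (adjusted p = 0.0029). Ndufab1, the mitochondrial acyl carrier protein, fell by 0.26 ± 0.06 (adjusted p = 0.0078). The smallest differences in this set were -0.13 ± 0.05 for Ndufa6 (adjusted p = 0.10) and -0.08 ± 0.10 for Ndufa2 (adjusted p = 0.65).

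On the proximal side of the membrane arm 3 of 9 accessory subunits were lower, with a median log2 difference of -0.16. Ndufa3 fell by 0.37 ± 0.09 (SE) on the log2 scale (adjusted p = 0.0099) and Ndufa13, also known as GRIM-19, fell by 0.34 ± 0.07 (adjusted p = 0.0032). Ndufa10 was lower by 12.2%, close to the threshold (adjusted p = 0.042). Ndufa8 differed by -0.13 ± 0.07 (adjusted p = 0.24). Ndufa11, a subunit at the contact with complex III, was at 88.4, 98.4, 90.1 and 91.8 CPM in sham and at 99.3, 94.9, 97.7 and 109 CPM in TAC, the highest log2 value of all Nduf genes at 0.12 ± 0.09 (adjusted p = 0.40).

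On the distal side, around the pump subunits farthest from the matrix arm, 8 of 10 were lower, with a median log2 difference of -0.24. Ndufb11 was at 169, 184, 187 and 177 CPM in sham and at 148, 133, 149 and 148 CPM in TAC, a log2 difference of -0.31 ± 0.06 (adjusted p = 0.0025). Ndufb8, whose protein is widely used as a marker of assembled complex I, was at 269, 290, 308 and 274 CPM in sham and at 229, 223, 243 and 234 CPM in TAC. The 4 TAC mice were again the lowest, and the log2 difference was -0.30 ± 0.06 (adjusted p = 0.0031). Ndufb4 fell by 0.28 ± 0.06 (adjusted p = 0.0070). Ndufb6 fell by 0.17 ± 0.05 (adjusted p = 0.044), and Ndufb3 had a value of 0.02 ± 0.06 (adjusted p = 0.89). Whether the proximal and distal sets differed was not tested.

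None of the assembly factors was called. Their log2 fold changes after TAC with GFP ran from -0.10 for Ndufaf4 to 0.08 for Ndufaf5, with a median of -0.05, and none of the 8 had an unadjusted p under 0.05; with plain library totals Ndufaf1 and Ndufaf5 were called higher, as above. Ndufaf1, an early factor for the membrane arm, was at 31.4, 31.9, 34.9 and 32.1 CPM in sham and at 33.6, 33.3, 34.4 and 32.5 CPM in TAC (0.04 ± 0.05, adjusted p = 0.69). Every TAC value lay below the highest sham value and above the remaining sham values, so the groups overlapped through 1 sham mouse. For the others the log2 difference was -0.07 ± 0.10 for Ndufaf2, -0.02 ± 0.08 for Ndufaf3, -0.10 ± 0.07 for Ndufaf4, 0.08 ± 0.06 for Ndufaf5, -0.10 ± 0.09 for Ndufaf6, -0.09 ± 0.07 for Ndufaf7, a methyltransferase, and -0.01 ± 0.10 for Ndufaf8. The 95% intervals of all 8 reached from -0.30 to 0.21 at their widest, which overlaps the falls of many subunits. Across the 46 genes, those with higher CPM in GFP sham mice had the more negative fold changes (Spearman rho = -0.71). Over the 36 subunits of both arms rho was -0.53. This is a description over genes that share the same libraries. The same GFP sham values are also the base of the fold changes, so noise in them pushes rho downward, by an amount that was not tested.

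Ndufa4 was lower after TAC with GFP, from 390, 394, 429 and 381 CPM in sham to 323, 315, 372 and 351 CPM in TAC (log2 -0.23 ± 0.06, adjusted p = 0.018). Ndufa4l2 was at 8.70 to 10.98 CPM in sham and 9.09 to 13.3 CPM in TAC, with overlap (0.11 ± 0.13, adjusted p = 0.64).

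**Figure D3:**
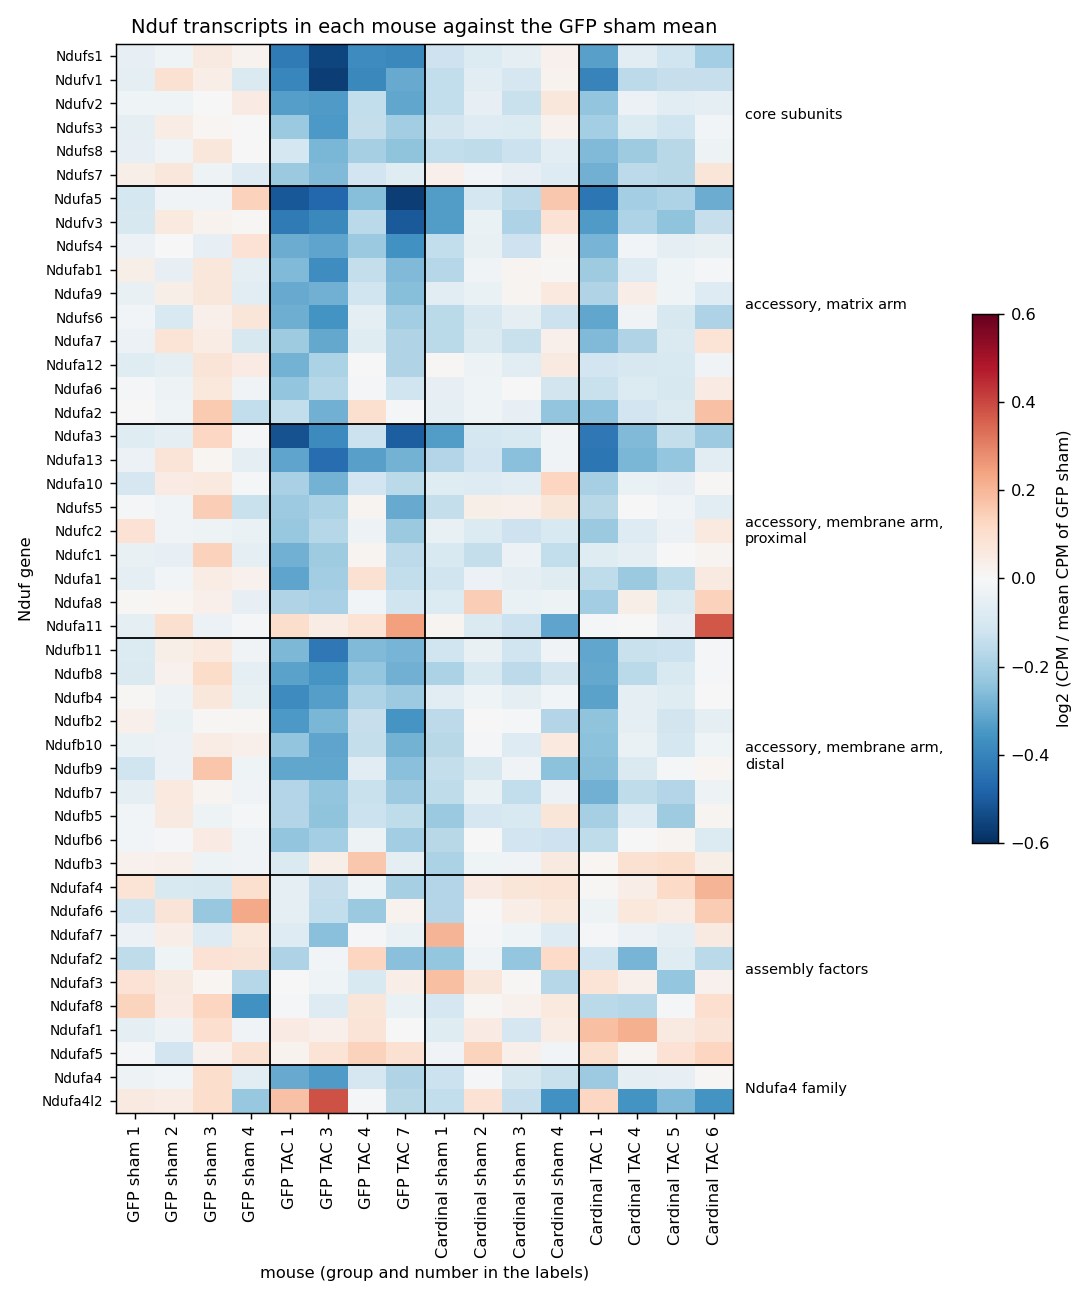
Heat map of the log2 ratio of each mouse's CPM to the mean CPM of GFP sham for the Nduf genes (rows, grouped by role and ordered by the GFP TAC difference) in the 16 mice (columns). The 4 GFP TAC columns are blue (lower) across most subunits and near white for the assembly factors. Of these, mouse 4 is the palest, with a median of -0.11 over all Nduf genes. Cardinal TAC mouse 1 is bluer than the other 3 mice of its group.

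Complex I also needs genes with other names. Of the 7 subunits encoded by mitochondrial DNA, 5 were lower after TAC with GFP: mt-Nd1 by 0.22, mt-Nd2 by 0.24, mt-Nd4 by 0.25, mt-Nd4l by 0.28 and mt-Nd5 by 0.27 on the log2 scale (adjusted p from 0.0023 to 0.011, edgeR). The median of the 7 was -0.24 beside -0.23 for the 36 nuclear subunits. Of 12 other assembly genes 11 were tested, and only Ecsit, part of the membrane-arm assembly complex, was called, with a fall of 0.22 ± 0.06 (adjusted p = 0.020). Nubpl, which delivers iron-sulfur clusters, had the largest value of these at -0.25 ± 0.09 (adjusted p = 0.071). Ndufb1-ps, which the annotation does not class as protein coding, was lower as well (-0.23 ± 0.07, adjusted p = 0.036). In the other complexes, 4 of 8 genes of complex II, 8 of 9 of complex III, 11 of 14 of complex IV and 13 of 17 of complex V were lower, with medians of -0.10, -0.23, -0.27 and -0.31. The complex II values were spread from -0.51 to 0.10, with 3 of 8 positive, so that median does not rank the complexes. Mean summed CPM went from 2147 in GFP sham to 1639 in GFP TAC for complex II. It went from 3151 to 2680 for complex III, 4384 to 3551 for complex IV and 10938 to 8793 for complex V. None of 8 regulators of mitochondrial genes was called; Gabpa was nearest, at -0.19 ± 0.06 (adjusted p = 0.055).

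Markers of cell types moved with these results. Of 8 cardiomyocyte markers 6 were lower after TAC with GFP, and their summed level was 47397 to 50556 CPM in sham and 36626 to 43910 CPM in TAC. Tnni3 fell by 0.53 and Pln by 0.50 on the log2 scale, more than any Nduf gene, while 2 of the 8 had positive values, up to 0.12. Of 6 fibroblast markers 4 were higher, and their sum went from 460 to 526 CPM in sham to 796 to 1034 CPM in TAC, led by Postn at 23.0 and 168 CPM in the mean. Of 5 endothelial markers 1 was higher (Cdh5), and of 5 macrophage markers none was called. Of 5 mural markers 1 was higher (Cspg4), and 2 had negative values, down to -0.69, without a call. Of 4 adipocyte markers only Fabp4, which endothelial cells also express, was abundant enough to test. The summed Nduf level was 15.4 ± 0.74 CPM per 100 CPM of cardiomyocyte markers in GFP sham and 15.4 ± 0.99 in GFP TAC (SD, n = 4 each). For the 7 core subunits alone the ratio was 5.06 ± 0.24 and 4.73 ± 0.26, and its ranges of 4.78 to 5.29 and 4.38 to 4.95 overlapped. The part of cell composition in the Nduf differences was not tested.

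Some Nduf reads could belong to other genes. Of the 46 genes, 30 share under 5% of their 50-base stretches with another gene, and 14 of these were lower after TAC with GFP, with a median of -0.18. Of the 16 genes that share at least 5%, 10 were lower, with a median of -0.23. Ndufaf2 shares 64.1%, Ndufb6 31.6% and Ndufa13 28.5%, mainly with genes that overlap on the other strand, and the sources used here state no strand setting for the counting.

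Promoters were read because many members moved together. A RefSeq promoter (GRCm38.p6, 250 bases before to 50 after the start site) was found for 40 of the 46 genes. Searched on both strands, AAGATGG, the core of the YY1 motif, occurred in 8 of the 40, or 20%, and in 7.18% of the promoters of 17492 protein-coding genes. The ERR motif AAGGTCA occurred in 3 (7.5% against 4.73%), the NRF1 motif CGCATGC in 5 (12.5% against 4.96%), and the GABPA motif CCGGAAG in 6 (15% against 12.9%). The 8 genes with the YY1 letters are shown because all 8 matches lay on the same side of the start site and on the same strand. Each began 11 to 39 bases after the start site on the coding strand. In 7 of the 8 the ATG inside the match was an annotated start codon. The exception was Ndufaf8. Capitals mark the motif in each 30-base window.
Ndufs4 (chr13:114388045-114388074, minus strand, lower after TAC with GFP): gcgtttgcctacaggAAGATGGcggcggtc
Ndufb8 (chr19:44555393-44555422, minus strand, lower): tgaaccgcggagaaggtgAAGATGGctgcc
Ndufa3 (chr7:3617384-3617413, plus strand, lower): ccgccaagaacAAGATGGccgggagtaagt
Ndufa9 (chr6:126849097-126849126, minus strand, lower): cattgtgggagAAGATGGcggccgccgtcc
Ndufs6 (chr13:73328433-73328462, minus strand, lower): aagggtcaccggcAAGATGGcggcggtgct
Ndufs7 (chr10:80249462-80249491, plus strand, not called): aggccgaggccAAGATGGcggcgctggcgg
Ndufc1 (chr3:51408915-51408944, minus strand, not called): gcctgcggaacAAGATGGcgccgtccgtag
Ndufaf8 (chr11:120098933-120098962, plus strand, not called): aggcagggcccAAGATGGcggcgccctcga

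So 5 of the 8 genes with these letters were lower after TAC with GFP, as were 21 of the 40 with a promoter. Of the 6 genes with the GABPA letters 4 were lower, Ndufb6, Ndufb7, Ndufs3 and Ndufs8, and Ndufaf1 and Ndufaf8 were not called. The ERR letters stood upstream of the start in Ndufb2 and Ndufb4, both lower, and in Ndufs5, which was not called. None of the 5 genes with the NRF1 letters, Ndufa6, Ndufa8, Ndufa11, Ndufaf4 and Ndufaf5, was called. A match to these letters is a description of the sequence and not of binding.

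The next question was whether TAC did the same in hearts with the Cardinal vector. There no Nduf gene was called in either direction by edgeR, 3 had an unadjusted p under 0.05, and DESeq2 also called none. Of all tested genes 6.48% were called in this comparison, 3.1% higher and 3.38% lower, and 21.8% had an unadjusted p under 0.05. The median log2 fold change was -0.04, and 34 of the 46 values were negative. Ndufs1 was at 547, 561, 573 and 605 CPM in Cardinal sham mice and at 475, 567, 548 and 516 CPM in Cardinal TAC mice. The groups overlapped, with TAC mouse 1 the lowest, and the log2 difference was -0.12 ± 0.06 (adjusted p = 0.24). Among all tested genes 7.21% had all 4 Cardinal TAC mice below the 4 sham mice, as did 1 of the 46 Nduf genes.

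In the other direction, Ndufaf1 was at 31.0, 33.6, 30.4 and 33.5 CPM in Cardinal sham mice and at 36.9, 37.7, 33.8 and 34.3 CPM in Cardinal TAC mice. No values overlapped, as for 6.51% of all tested genes, and the difference was 0.15 ± 0.05 (adjusted p = 0.11). Ndufa11 had the largest value in this comparison, 0.21 ± 0.09 (adjusted p = 0.18), with TAC mouse 6 at 120 CPM and the other 3 TAC mice at 89.2 to 91.9 CPM. The summed Nduf level was 6835 to 7440 CPM in Cardinal sham and 6248, 7026, 6971 and 7244 CPM in Cardinal TAC mice 1, 4, 5 and 6. Only mouse 1 lay below all sham mice. Without it, the median log2 fold change was -0.0022, the end nearest 0 of the fits with 1 mouse left out. The other end was -0.061, without Cardinal sham mouse 1. Over the other alternatives the median ran from -0.090 with the mouse number as a block to 0.0094 without Cardinal TAC mouse 1 and Cardinal sham mouse 4. That sham mouse had the highest summed Nduf level of its group, so leaving out both raises this median by construction. In the same mice the cardiomyocyte markers summed to 45625 to 50514 CPM in sham and to 43876 to 48306 CPM in TAC, and the fibroblast markers to 454 to 497 CPM and to 466 to 867 CPM. The part of these markers was not tested.

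**Figure D4:**
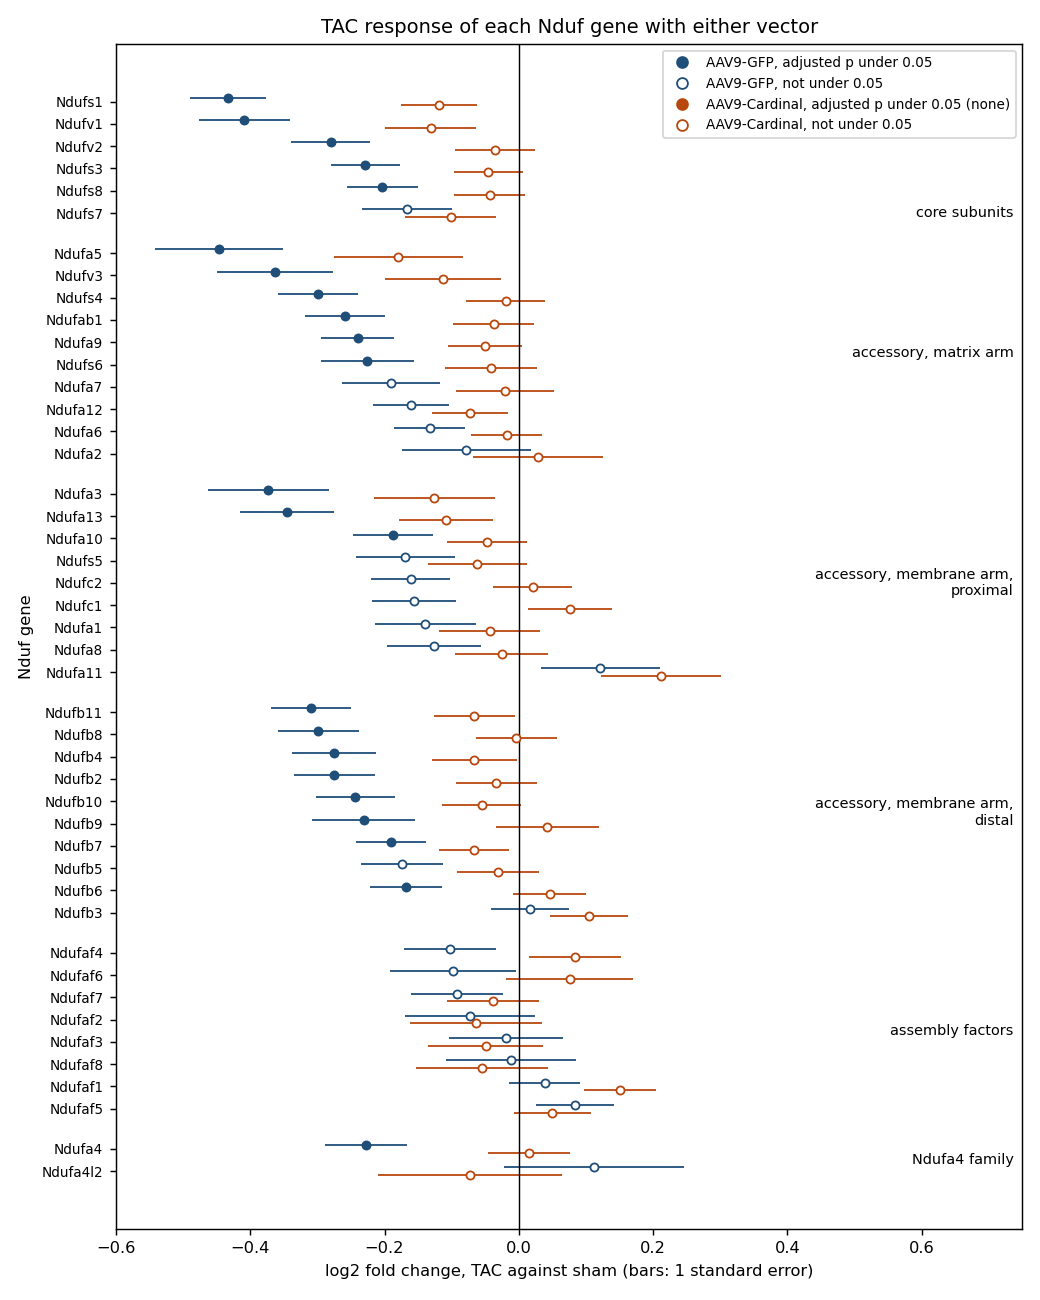
Log2 fold change of TAC against sham for the Nduf genes with AAV9-GFP (blue) and with AAV9-Cardinal (orange); bars are 1 standard error, and filled points have an adjusted p under 0.05 by edgeR. With GFP all filled points are below 0; with Cardinal none is filled.

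A call with GFP and none with Cardinal does not show that the responses differed, so the difference itself was tested. In the test of the vector by surgery interaction no Nduf gene was called by edgeR, against 0.0119% of all tested genes (0.00593% in each direction). The interaction was positive, meaning less negative with Cardinal, for 42 of the 46 genes, with a median of 0.18 on the log2 scale against -0.00071 over all tested genes. Of the 46 genes 20 had an unadjusted p under 0.05, against 10.2% of all tested genes. Ndufs1 was the largest at 0.31 ± 0.08, with a 95% interval of 0.14 to 0.48 and an adjusted p of 0.30. Ndufb8 followed at 0.29 ± 0.08 (adjusted p = 0.31), then Ndufs4 at 0.28 ± 0.08 (adjusted p = 0.31). For the assembly factors the median interaction was 0.03. This test contains both TAC comparisons above and is not independent of them.

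The test depended on Cardinal TAC mouse 1 and on the tool. Without that mouse the edgeR calls included Ndufs1 (0.36 ± 0.07, adjusted p = 0.045). With all mice the DESeq2 calls included Ndufs1 (adjusted p = 0.0225), Ndufb8 (0.0342) and Ndufs4 (0.0413), all positive. The calls took 0.463% of all genes in the fit without the mouse, 0.211% of them positive, and 5.53% of the 2476 genes to which DESeq2 gave an adjusted p, 4.85% positive.

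Hearts with either vector were then compared directly after TAC, which shares the GFP TAC and Cardinal TAC mice with the comparisons above. No Nduf gene was called by edgeR, against 0.101% of all tested genes (0.0237% higher and 0.0771% lower). The values leaned to higher levels with Cardinal: 41 of 46 were positive, with a median of 0.11 on the log2 scale against -0.0065 over all tested genes, and 16 had an unadjusted p under 0.05, against 15% of all tested genes. Of these 16, 15 were higher and Ndufa4l2 was lower. Ndufs1 came nearest to a call, at 441 ± 23.6 CPM with GFP and 526 ± 40.5 CPM with Cardinal (SD, n = 4 each), a log2 difference of 0.26 ± 0.06 (adjusted p = 0.075). The 4 GFP TAC values of 407 to 458 CPM lay below the 4 Cardinal TAC values of 475 to 567 CPM. Ndufaf4 was the only other gene without overlap in this direction, at 46.5 to 52.5 CPM with GFP and 53.8 to 61.6 CPM with Cardinal (0.20 ± 0.07, adjusted p = 0.20). Such separation was seen in 3.58% of all tested genes, and the opposite one in 3.19% and in no Nduf gene. The other values over 0.20 were those of Ndufs4 (0.20 ± 0.06, adjusted p = 0.13) and Ndufv1 (0.20 ± 0.07, adjusted p = 0.18).

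Ndufa4l2 went the other way and had the largest difference in size, -0.31 ± 0.13 (adjusted p = 0.29). It was at 11.5, 13.3, 10.1 and 9.09 CPM in GFP TAC mice and at 11.1, 7.94, 8.47 and 7.96 CPM in Cardinal TAC mice, so only Cardinal mouse 1 stood among the GFP mice.

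Here too mouse 1, picked partly for its low Nduf level, mattered. With 1 mouse left out at a time the median ran from 0.091 without GFP TAC mouse 1 to 0.153 without Cardinal TAC mouse 1. Without it edgeR called 9 Nduf genes higher with Cardinal after TAC, among them Ndufs1, Ndufv1, Ndufv2, Ndufs4, Ndufa9, Ndufb4, Ndufb8 and Ndufb11, from 0.21 to 0.30 on the log2 scale. In that fit 1.49% of all tested genes were called higher and 1.64% lower. Ndufs1 was first among the 9 at 0.30 ± 0.05 (adjusted p = 0.0090). With all mice DESeq2 called 4, among them Ndufs1, Ndufs4 and Ndufa9, all higher, when it called 3.23% higher and 1.52% lower of the 9010 genes to which it gave an adjusted p. In the same comparison all 8 cardiomyocyte markers had positive values, with a median of 0.23, and all 6 fibroblast markers had negative values, with a median of -0.56, and none of the 14 was called. The Nduf sum per 100 CPM of cardiomyocyte markers was 14.7 ± 0.34 in Cardinal TAC, 15.4 ± 0.99 in GFP TAC and 14.8 ± 0.35 in Cardinal sham hearts (SD, n = 4 each).

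**Figure D5:**
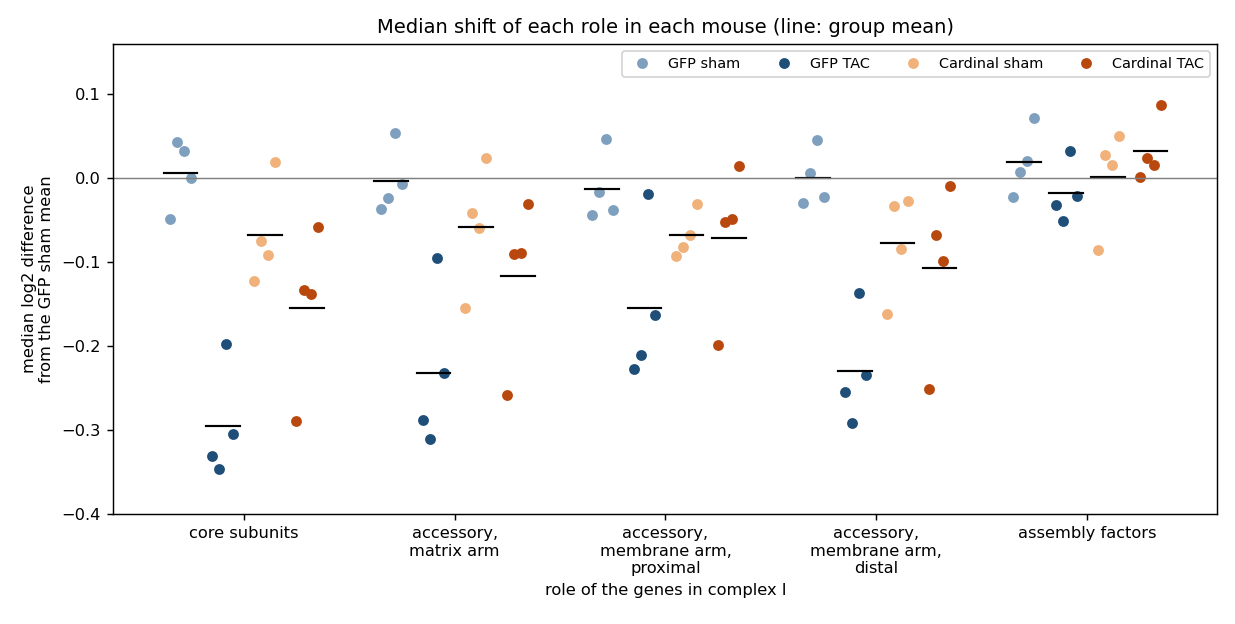
Median over the genes of each role of the log2 ratio of CPM to the GFP sham mean, 1 point per mouse, with a line at each group mean. For the core subunits GFP TAC mice lie between -0.35 and -0.20, Cardinal TAC mouse 1 lies at -0.29 and the other Cardinal TAC mice between -0.14 and -0.06; for the assembly factors all 16 mice lie between -0.09 and 0.09.

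After sham surgery the vectors gave close values, with most Nduf genes a little lower with Cardinal. No Nduf gene was called by edgeR or DESeq2, against 0.0119% of all tested genes by edgeR (0.00593% in each direction), and 2 had an unadjusted p under 0.05, against 2.59% of all tested genes. The median log2 difference was -0.07, and 41 of the 46 values were negative. All 4 Cardinal mice lay below the 4 GFP mice for Ndufb8 (-0.14), Ndufs8 (-0.12) and Ndufc2 (-0.09), a separation seen in 1.16% of all tested genes; 1.2% showed the opposite one, and no Nduf gene did. Ndufb8 was at 250 to 268 CPM with Cardinal and at 269 to 308 CPM with GFP. The largest value was that of Ndufa13, at -0.14. By mouse, the median over the 7 core subunits was 0.01 ± 0.04 in GFP sham, -0.07 ± 0.06 in Cardinal sham, -0.15 ± 0.10 in Cardinal TAC and -0.29 ± 0.07 in GFP TAC hearts on the log2 scale (SD, n = 4 each), relative to the GFP sham mean. In that order each group overlapped its neighbor; without Cardinal TAC mouse 1, Cardinal TAC and GFP TAC did not overlap.

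The 46 genes also differed in how steady they were between mice. The median coefficient of variation was 4.55% in GFP sham, 6.49% in GFP TAC, 5.57% in Cardinal sham and 7.22% in Cardinal TAC mice. The least steady were Ndufaf8 in GFP sham (15.1%), Ndufa5 in Cardinal sham (14.5%) and Ndufa4l2 after TAC, with 16.5% with GFP and 17.02% with Cardinal.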

How the data were processed

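The deposited table holds raw counts of reads per gene for 16 heart libraries (poly(A) RNA, single-end 50-base reads). Per the labels the authors aligned to GRCm38 with HISAT2 2.1.0, after FastQC, and used edgeR 3.26.1. The counter, annotation, strand setting and handling of reads with several positions are not given in the sources used here. Ensembl IDs were named with GENCODE M21, which matched 55480 of 55573. Groups came from the vector and surgery labels. Counts were fitted in edgeR 4.0.16 (R 4.3.3) with filterByExpr, TMM scaling, 1 model over the 4 groups and quasi-likelihood tests, with Benjamini-Hochberg adjustment over 16857 genes and a threshold of 0.05. SE is the log2 fold change divided by the square root of F. Fits were tested on simulated data. Named genes were the core subunits, Ndufa4, Ndufa4l2, the Ndufaf genes, the 3 largest and 2 smallest differences of each accessory set after TAC with GFP, the largest of each comparison, and called genes of the other complex I lists; others, such as Ndufab1, Ndufb1-ps, Gabpa, single markers, and genes of a promoter set or non-overlapping, were named after their values were seen. The values of 1 member are not reported here, though counts and medians over members include it. Members and lists were chosen with earlier results of these data known. Alternatives were DESeq2 1.42.0, other filters, scalings, a robust spread, only the 8 mice compared, mitochondrially encoded genes left out, offsets for GC and length, a mouse-number block and each mouse left out; plain library totals and leaving out 2 mice were added after seeing the data. Library totals were 16441997 to 21904589 counts, so 3 counts equal 0.14 to 0.18 CPM. The labels do not say more of how mice were assigned, and p-values set group differences against the spread between these mice. Levels per length used the shortest principal protein-coding transcript.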

Additional observations from a re-analysis of the deposited data

Results flagged for a closer look

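Of 124 sets of 4 mice (31 named Nduf genes in 4 groups), 12 held a mouse whose gap to the nearest of the others relative to the range was past Dixon's 95% critical value; chance would give about 6.2. Cardinal TAC mouse 1 was the low mouse for Ndufv1 (335 CPM, others 396 to 401), Ndufv2 (262 CPM, others 295 to 301) and Ndufs4 (74.0 CPM, others 86.6 to 88.7), and the high mouse for Ndufa4l2 (11.1 CPM, others 7.94 to 8.47). Cardinal sham mouse 4 was high for Ndufa10 (456 CPM, others 395 to 398) and low for Ndufa2 (55.3 CPM, others 62.8 to 64.0). Cardinal TAC mouse 6 was high for Ndufa11 (120 CPM, others 89.2 to 91.9), and Cardinal sham mouse 1 was low for Ndufaf4 (47.4 CPM, others 55.4 to 56.6). With GFP, TAC mouse 3 was low for Ndufb11 (133 CPM, others 148 to 149), and TAC mouse 4 was high for Ndufb6 (61.6 CPM, others 53.4 to 54.8) and Ndufv2 (279 CPM, others 243.8 to 248.6). GFP sham mouse 3 was high for Ndufb6 (65.1 CPM, others 62.0 to 62.5).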

How the results depend on the processing

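With 1 mouse left out at a time, the count of Nduf genes lower after TAC with GFP ran from 17 to 30. The lowest was without GFP TAC mouse 3 and the highest without GFP TAC mouse 4, when 5.97% and 8.1% of all tested genes were lower. With DESeq2, other filters, scalings or offsets the count ran from 20 to 26. Those fits called 4.2% (no filter) to 9.08% (length offset) of all tested genes lower. Plain library totals gave 13 calls, of which 4 were higher, with medians of -0.029 after TAC with GFP, 0.018 between vectors after TAC and 0.058 for the interaction, while the median of all genes moved to 0.16, -0.10 and -0.13. Of the 24 genes, 9 kept their call in all 28 alternatives (among them Ndufs1, Ndufv1, Ndufs4, Ndufv3, Ndufa3, Ndufa5, Ndufa13 and Ndufb11), and Ndufb6 and Ndufb9 kept it in 11. With the mouse number as a replicate block the count was 17, when 12.4% of all tested genes were called, 6.54% of them lower than in sham. The labels do not say what a mouse number stands for. Deviations of mice with the same number leaned together: their mean correlation was 0.13 against -0.026 for other pairs, 10 of 16 pairs were over 0.1 (range -0.02 to 0.34), and the best match had the same number in 19 of 32 tries. Each try had the 4 mice of another group to choose from. Not every pair was over 0.1, so the pairing was taken as a hint from the data and was not used in the fits reported. Whether the mice were paired was not settled. Between vectors after TAC the count of 0 became 4 with DESeq2, 8 without Cardinal TAC mouse 1 and Cardinal sham mouse 4, and 0 to 9 with 1 mouse left out. These fits called 4.75%, 2.99% and 0 to 3.13% of all genes with an adjusted p. For the interaction the Nduf count became 4, 3 and 0 to 2, when 5.53%, 0.534% and 0.0117 to 0.463% of those genes were called. The cause of these changes was not tested. In summed Nduf level Cardinal TAC mouse 1 was the lowest and Cardinal sham mouse 4 the highest of its group. Leaving out both raises the interaction by construction. The counts for TAC with Cardinal and for the vectors after sham stayed at 0 in every alternative run. The block added no Nduf call in the other comparisons. For TAC with Cardinal it cut the calls over all tested genes from 6.48% to 0.184%, and the Nduf median there was -0.090. A fit of only the 8 mice compared gave 22 for TAC with GFP, with 14.3% of all tested genes called, and could not be made for the interaction.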
